A study of Mus musculus with 4 samples.

Results

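The Ifi200 family and Aim2 are PYHIN genes that lie together on mouse chromosome 1. The 9 genes described are Ifi203, Ifi204, Ifi205, Ifi207, Ifi209, Ifi211, Ifi213, Mndal and Aim2, taken by symbol from 55536 gene rows, and all 9 had a row. RNA was measured by polyA-selected RNA-seq in macrophages grown from the bone marrow of C57BL/6J mice. The 4 libraries are biological replicates of 1 group: primary cells given 100 ng/ml lipid A for 12 h, kept without it for 12 h, and harvested at 0 min of a second stimulation. Some label fields call the agent lipoprotein A, and neither sex nor age was collected. All 4 libraries received the pretreatment, and the effect of lipid A is not measured here. The libraries carry 1 donor identifier, and a p-value reflects only how far they spread. Replicates 3 and 4 had 48875472 and 57126810 gene counts and 4 read files each in the deposited notes, while replicates 1 and 2 had 25594340 and 27384162 gene counts and 6 read files each. That difference in read files is a record of the libraries, not a condition.

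Most PYHIN proteins carry a pyrin domain, which binds other pyrin domains, and most carry a HIN domain, which binds double-stranded DNA. Aim2 is the DNA receptor of an inflammasome: on cytosolic DNA it recruits the adaptor ASC, encoded by Pycard, and thereby caspase-1, which matures interleukin-1β and interleukin-18. The Ifi200 genes were named for their induction by interferons, and in mice they multiplied into a cluster of related genes. Where these share sequence, reads are hard to assign to 1 gene.

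The promoters are shown first, because several of these genes shared 1 short element close to their start. Promoters from RefSeq (GRCm38.p6, 250 bases before to 50 bases after a gene's start) were found for 8 of the 9 genes, all except Ifi204. They were searched on both strands for GAAANNGAA, the core of the interferon-stimulated response element. It occurred in 7 of the 10 promoters of these genes, against 8.56% of 32851 mouse promoters. The 7 belong to 6 genes, Ifi203, Ifi205, Ifi207, Ifi211, Ifi213 and Mndal. The windows of Aim2 and Ifi209 and a second window of Ifi203 held no match. TTCNNNGAA, the core of the gamma-activated site, was in 0 of the 10 and in 8.3% of all promoters. With 0 of the 10 holding the second motif, no overlap with the first was possible there. In each of the 6 genes a match read GAAATCGAA or GAAATTGAA, and the form GAAATNGAA, singled out after the matches were seen, was in 1.49% of all promoters. A match describes letters in this window and is no proof of a bound factor. The matched 9 bases are in capitals, with 15 bases on either side, each read 5′ to 3′ along its gene:
Ifi203 (chr1:173942504-173942542, minus strand): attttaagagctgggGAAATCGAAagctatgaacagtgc
Mndal (chr1:173880200-173880238, minus strand): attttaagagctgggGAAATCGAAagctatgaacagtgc
Ifi205 (chr1:174031866-174031904, minus strand): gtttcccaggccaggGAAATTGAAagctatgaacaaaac
Ifi207 (chr1:173741827-173741865, minus strand): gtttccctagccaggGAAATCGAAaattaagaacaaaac
Ifi211 (chr1:173913060-173913098, minus strand): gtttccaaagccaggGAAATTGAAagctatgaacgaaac
Ifi213 (chr1:173599322-173599360, minus strand): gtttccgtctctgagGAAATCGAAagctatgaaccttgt
The Ifi203 and Mndal windows were identical over all 39 bases, and the Ifi213 window was identical to that of Ifi208, another gene of the cluster, on the plus strand. Counted from the RefSeq start, the match began at -35 in Ifi203, -36 in Mndal, -37 in Ifi211, -41 in Ifi207, -73 in Ifi213 and -134 in Ifi205. Of 4 other cluster genes with a promoter, Ifi206, Ifi208 and Ifi214 held a match and Ifi202b did not. Ifi205 and a second Mndal promoter also held a match in the reverse orientation, at 24 and -53.

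All 9 genes lie within 680932 bases, chr1:173350879-174031810 in mm10, where GENCODE M21 lists 21 genes, 13 of them protein coding. Aim2 opens the interval at chr1:173350879-173466040 on the plus strand. Ifi213 (chr1:173566283-173599274, minus), Ifi209 (chr1:173630917-173647928, plus), Ifi207 (chr1:173723427-173741747, minus) and Ifi204 (chr1:173747293-173766943, minus) follow. Mndal (chr1:173849126-173942491, minus) spans the whole of Ifi211 (chr1:173896345-173913046, minus) and shares 37 exonic bases with Ifi203 (chr1:173920407-173942672, minus). Ifi205 closes the interval at chr1:174011998-174031810 on the minus strand. No other exons of the named cluster genes overlapped each other. Ifi206, Ifi208, Ifi214, Ifi202b and the pseudogene Ifi203-ps lie among them.

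**Figure D1:**
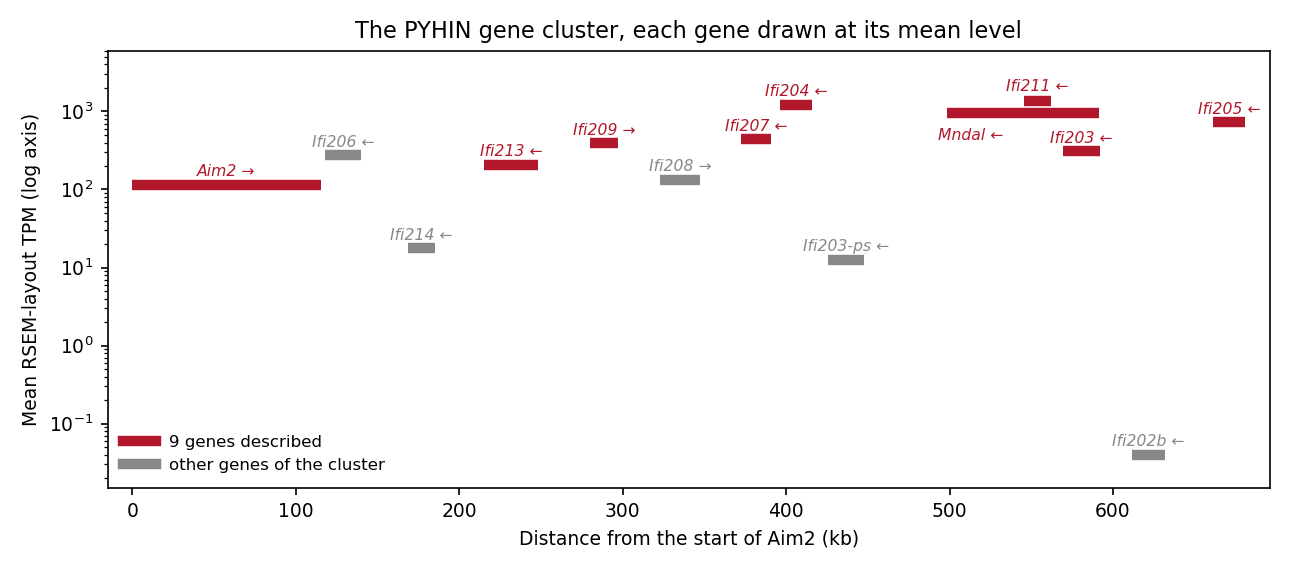
Mean TPM of each gene of the PYHIN cluster (log axis) against distance from the start of Aim2 in kb, with arrows for the strand. The 9 genes described (red) sit between 115 and 1359 TPM, and the 5 other genes of the cluster (grey) between 0.04 and 274 TPM.

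Levels are given as TPM, transcript abundance per length scaled to the same total in each library, from the tables in the RSEM column layout unless kallisto is named. The 9 genes summed to 7605 and 5187 TPM in replicates 3 and 4, against 5456 and 4686 TPM in replicates 1 and 2. That is 0.761%, 0.519%, 0.546% and 0.469% of all gene TPM in the same order. By mean level Ifi211 ranked at 75 of all genes, Ifi204 at 85, Mndal at 114 and Ifi205 at 157, while Aim2, the lowest of the 9, ranked at 1198. Ifi211 and Ifi204 held 23.61% ± 1.39 and 21.1% ± 1.87 of the sum (SD, n = 4).

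Aim2, the inflammasome receptor, had 136 and 107 TPM in replicates 3 and 4, against 109.6 and 108 TPM in replicates 1 and 2, a mean of 115 ± 14.1 (SD, n = 4). Replicate 3 stood above the other 3 libraries, which lay within 3 TPM of each other at 106.83 to 109.62 TPM. The coefficient of variation (CV, SD over mean) of Aim2 was 12.2%, the smallest of the 9 genes in the RSEM layout. In the kallisto layout it was 20.8%, above the 16.5% of Ifi213.

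Ifi204 encodes a nuclear protein studied in myeloid differentiation and in DNA sensing, and is often set beside human IFI16. It had 1704 and 1193 TPM in replicates 3 and 4, against 1055 and 921 TPM in replicates 1 and 2, a mean of 1218 ± 342 TPM (SD, n = 4). Mndal, which restrains cell growth when it is expressed in cell lines, had 1271 and 1049.5 TPM in replicates 3 and 4, against 762 and 763 TPM in replicates 1 and 2 (962 ± 247). Both genes were higher in replicates 3 and 4 than in replicates 1 and 2, with no overlap.

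Ifi207, reported in mice to stabilise the DNA-sensing adaptor STING, had 573 and 458 TPM in replicates 3 and 4, against 403 and 322 TPM in replicates 1 and 2 (439 ± 105). These pairs did not overlap either. Ifi205, reported to control expression of Pycard in mouse macrophages, had 1012 and 393 TPM in replicates 3 and 4, against 904 and 628 TPM in replicates 1 and 2 (734 ± 279).

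Ifi205 had a CV of 38.0% in the RSEM layout, the highest of the 9 genes with all 4 libraries, and its replicates 3 and 4 enclosed replicates 1 and 2. That place rested on replicate 4: without it the CV of Ifi205 was 23.4% and that of Ifi204 34.1%. In the kallisto layout Ifi205 had a CV of 42.9% and Ifi204 of 42.8%. Replicate 3 was 2.57-fold above replicate 4. Among 1361 genes averaging 100 TPM or more, 0.37% differed as much between those libraries, and the median difference was 0.19 on the log2 scale. The share of Ifi205 in the summed TPM of the 9 genes was 13.31% and 7.58% in replicates 3 and 4, against 16.56% and 13.4% in replicates 1 and 2. The median CV of the 9 genes was 24%, beside the 22.9% of the 1361 genes.

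Ifi205 was higher in replicates 1 and 3 than in replicates 2 and 4. Among the 9 genes Ifi211 and Aim2 were so too, Aim2 by a small margin, and the rest were not. Ifi206, Ifi214 and Ifit3, outside the 9, also had this order. The neutrophil markers had it as well. They summed to 78.16 and 6.81 TPM in replicates 3 and 4, against 88.94 and 13.31 TPM in replicates 1 and 2. S100a9 and S100a8 made up most of this, and 3 of the 6 markers averaged 1 TPM or more. Mpo and Elane averaged 0.2 and 0.14 TPM, and Ly6g was at 0 in all 4 libraries. The part of the neutrophil markers in the spread of Ifi205 or of the other genes with this order was not tested. T cell markers summed to 75.13 and 65.34 TPM in replicates 3 and 4, against 32.79 and 24.14 TPM in replicates 1 and 2. This was nearly all Cd4, 1 of the 5 markers averaging 1 TPM or more (log2 fold 1.31, SE 0.26, edgeR adjusted p = 0.0467). Cd3e, Cd3g, Cd8a and Trac each averaged 0.15 TPM or less. The part of the T cell markers in any difference between these pairs of libraries was not tested. In bulk RNA, fewer cells of a type and less RNA per cell cannot be told apart. The macrophage markers, led by Lyz2, Cd68 and Adgre1, summed to between 15437 and 18144 TPM, with all 10 averaging 10 TPM or more. B cell, dendritic, erythroid and stromal markers each summed to 4.21 TPM or less in every library.

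Ifi211, Ifi209, Ifi203 and Ifi213 are less well characterised PYHIN genes. Ifi211 had 1824 and 1241 TPM in replicates 3 and 4, against 1358 and 1014 TPM in replicates 1 and 2 (1359 ± 341.5). Ifi209 had 493 and 313 TPM in replicates 3 and 4, against 352 and 398 TPM in replicates 1 and 2 (389 ± 77.45). In both genes the pairs of libraries overlapped.

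Ifi203 had 379.85 and 288 TPM in replicates 3 and 4, against 264 and 305 TPM in replicates 1 and 2 (309 ± 50.02), which overlapped. Ifi213 had 211 and 145 TPM in replicates 3 and 4, against 248 and 226 TPM in replicates 1 and 2 (208 ± 44.3). It was lower in replicates 3 and 4 without overlap. In TPM, 3 of the 9 genes (Ifi204, Mndal and Ifi207) were thus apart in the higher direction and 1 (Ifi213) in the lower, against 30.1% and 28.2% of 11435 genes averaging 1 TPM or more. In kallisto-layout TPM 7 of the 9 genes were apart in the higher direction and 0 in the lower, against 53.0% and 12.5% of 12380 genes. Replicate 3 stood above replicate 4 in all 9 genes, and in 45% of the 11435 genes of the RSEM layout.

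**Figure D2:**
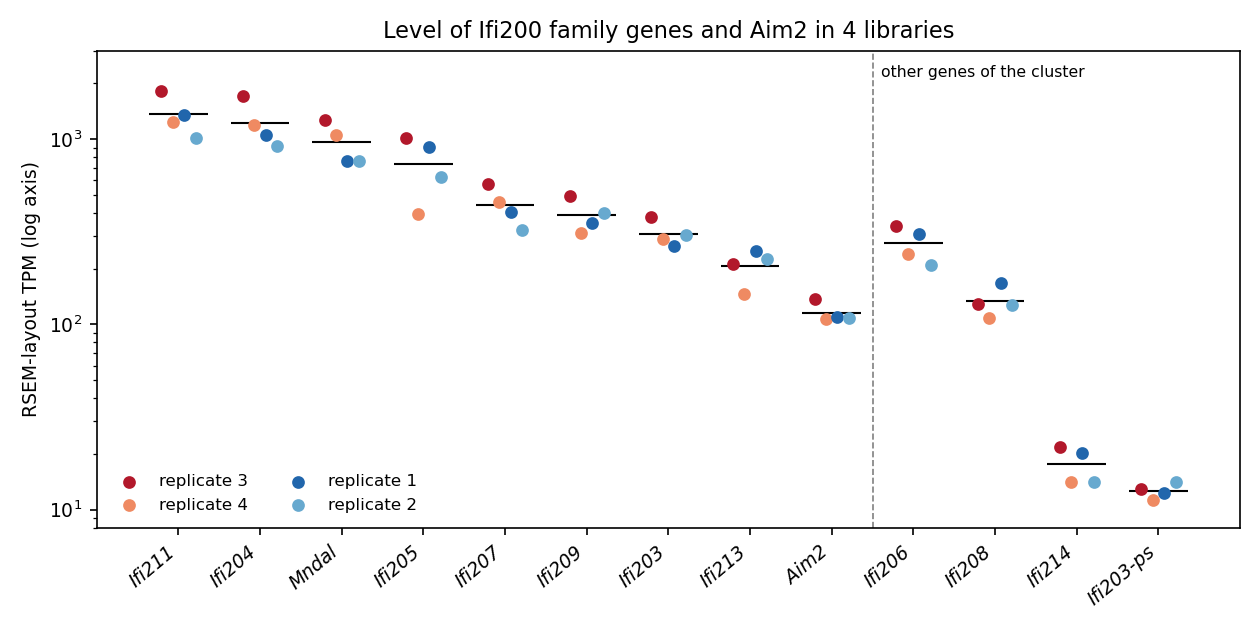
RSEM-layout TPM (log axis) of the 9 genes, ordered by mean level, and of 4 other cluster genes, with 1 point for each library and a line at the mean. Ifi205 is highest in replicate 3, at 1012 TPM, and lowest in replicate 4, at 393 TPM, while Aim2 lies between 107 and 136 TPM.

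Neighbours in the order of levels were compared within each library on log2(TPM + 1), so that both genes shared the same depth. Of 8 neighbouring pairs, 5 kept 1 sign in all 4 libraries with a mean above the SD. Ifi211 exceeded Ifi204 by 0.16 ± 0.14, Ifi204 exceeded Mndal by 0.34 ± 0.13, Ifi209 exceeded Ifi203 by 0.32 ± 0.14, Ifi203 exceeded Ifi213 by 0.59 ± 0.41 and Ifi213 exceeded Aim2 by 0.82 ± 0.35 (log2, SD, n = 4). The exact two-sided sign-flip permutation test gave p = 0.125 for each, the smallest that 4 libraries allow, and 0.2 after Benjamini-Hochberg adjustment over the 8 pairs.

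The other 3 pairs changed sign in 1 library. Mndal exceeded Ifi205 by 0.44 ± 0.70 (exact p = 0.25, adjusted 0.286), and the sign turned in replicate 1, at -0.25. Ifi205 exceeded Ifi207 by 0.68 ± 0.62 (exact p = 0.25, adjusted 0.286), with -0.22 in replicate 4 alone. Ifi207 exceeded Ifi209 by 0.16 ± 0.35 (exact p = 0.5), with -0.30 in replicate 2. Without the library that turned, the means were 0.67, 0.98 and 0.32, and the sign was then the same in the other 3 libraries by construction. Within replicates 3 and 4 alone Mndal exceeded Ifi205 by 0.87, and within replicates 1 and 2 alone by 0.02. Over all 36 pairs of the 9 genes, 33 kept their order in this sense. The order was set by the means of the same 4 libraries, so these counts describe the libraries and are no independent test.

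Paralogy limits how far reads can be given to 1 gene, and it was measured on the GENCODE M21 transcripts as the share of 31-base words found in no other gene. Ifi211, the most abundant of the 9, had the fewest words of its own: 365 of 1731, or 21.09%. It shared 49.51% of its words with Ifi205, 38.59% with Ifi204 and 25.25% with Mndal. Ifi209 had 52.81% unique words and shared 46.8% with Ifi214, which stood at 17.57 ± 4.07 TPM. Aim2 was the most distinct of the 9, with 95.11% unique words and none shared with the other named genes of the cluster. It shared 1.82% with Gm7871, a pseudogene within the same interval.

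The other genes lay between these. Ifi204 had 65.96% unique words, Mndal 71.29%, Ifi213 73.51%, Ifi205 77.94%, Ifi203 78.39% and Ifi207 85.23%. Ifi213 shared most with Ifi208 (23.31%), and Ifi203 with its pseudogene copy Ifi203-ps (15.91%). Sharing fell into 1 block of Ifi206, Ifi208 and Ifi213, a pair of Ifi209 and Ifi214, and 1 block around Ifi211.

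**Figure D3:**
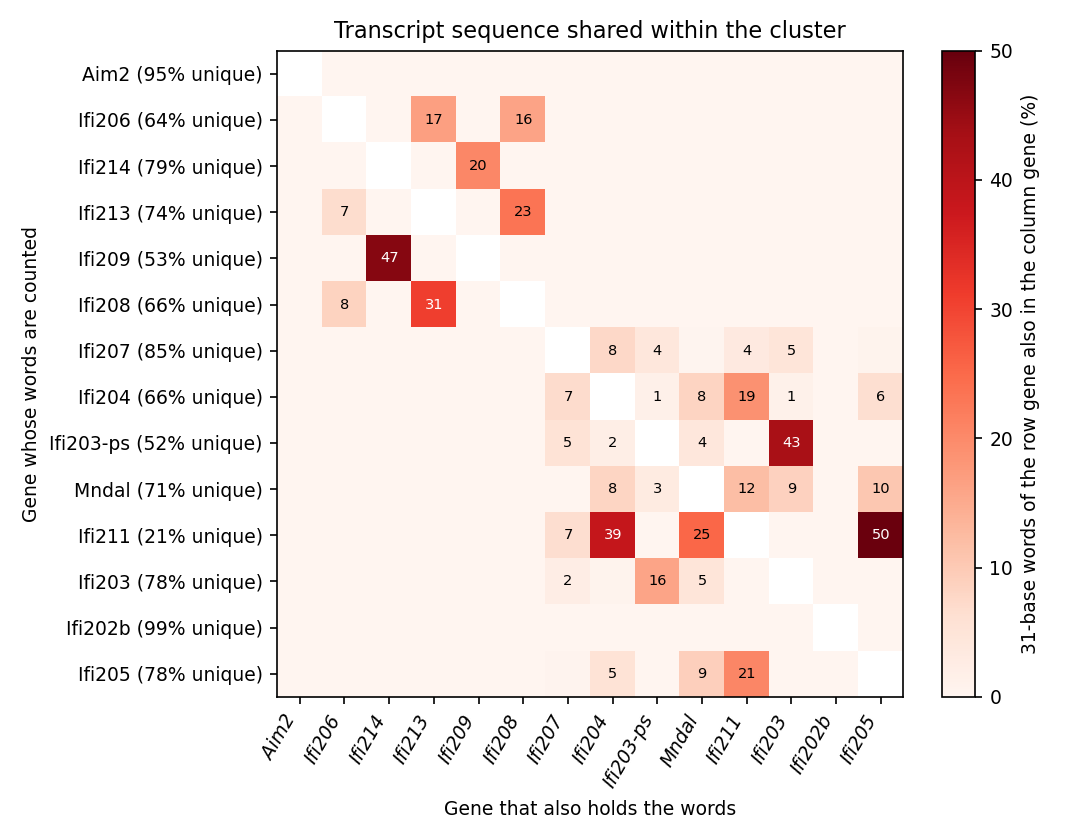
Share of the 31-base transcript words of each row gene that also occur in the column gene, in percent, with genes in chromosomal order and shares of 1% or more printed. Ifi211 (21.09% unique) shares words with Ifi205, Ifi204 and Mndal, Ifi209 with Ifi214, and Aim2 with no other gene drawn.

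The RSEM-layout gene tables also hold a posterior SD of each count, the uncertainty of assigning reads among genes. Among the 9 genes it was largest for Ifi205, at 0.176% to 0.4% of the count, and for Ifi211, at 0.124% to 0.3%. For Ifi204 it was 0.0658% to 0.148%, for the others below 0.06%, and for Aim2 0 in all 4 libraries. Ifi214, at 0.824% to 1.02% of its count, and Ifi209 had the same posterior SD in each library, 10.36 and 8.55 counts in replicates 3 and 4, against 5.6 and 4.59 counts in replicates 1 and 2.

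Both deposited quantifications were then compared, since each assigns shared reads in its own way. TPM were summed over the 141767 transcripts present in both layouts and set as log2 of kallisto over RSEM with a pseudocount of 0.1. A gene was called discordant at 2-fold or more in 1 direction in all 4 libraries. None of the 9 genes was discordant, against 7.65% of 12757 genes with a mean of at least 1 TPM. At 1.5-fold the count was also 0 of 9, against 8.94% of these genes. The 9 genes averaged 115 TPM or more, and no share was computed for genes of that level alone. With a pseudocount of 1 the discordant genes fell from 976 to 593. A count of 0 among 9 genes does not set them apart from these shares.

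Both the 9 genes and the median of all 12757 genes had a higher ratio in replicates 3 and 4 than in replicates 1 and 2. The log2 ratio of the 9 genes ran from -0.00 to 0.26 in replicate 3 and from 0.00 to 0.31 in replicate 4, and from -0.46 to -0.08 in replicate 1 and from -0.42 to -0.03 in replicate 2. The median of all 12757 genes was 0.04 and 0.05 in replicates 3 and 4, against -0.35 and -0.32 in replicates 1 and 2. Relative to that median, a centring chosen after the data were seen, Ifi209 stood highest at 0.23 on average and Ifi204 lowest at -0.08. The exact sign-flip permutation test gave p = 0.25 or more for each uncentred ratio.

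Mean levels in the kallisto layout were 1234.1 ± 467 TPM for Ifi211, 1088 ± 466 for Ifi204, 969 ± 372 for Mndal, 640.3 ± 275 for Ifi205, 418 ± 116 for Ifi209, 408 ± 167 for Ifi207, 295 ± 77.7 for Ifi203, 200 ± 33.0 for Ifi213 and 115 ± 23.9 for Aim2 (SD, n = 4). Only Ifi209 and Ifi207 changed places, with Ifi207 over Ifi209 at -0.09 on the log2 scale in the kallisto layout against 0.16 in the RSEM layout. Ifi205 again had replicate 3 far above replicate 4, at 1012 and 394 TPM, with 677 and 478 TPM in replicates 1 and 2.

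**Figure D4:**
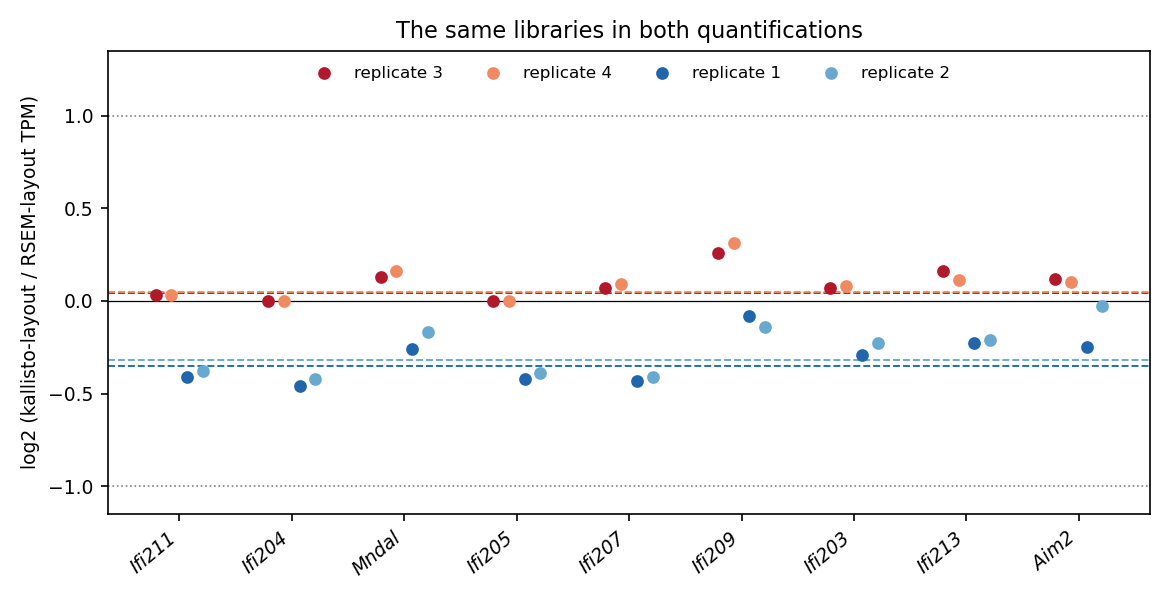
Log2 of kallisto-layout over RSEM-layout TPM for the 9 genes, with 1 point for each library, dashed lines at the median of 12757 genes in that library and dotted lines at 2-fold. Replicates 3 and 4 lie from -0.00 to 0.31 and replicates 1 and 2 from -0.46 to -0.03, so all points are inside 2-fold.

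Both layouts also hold each transcript. The 9 genes have 40 transcript models, of which 38 could be compared, and 3 were discordant by the same rule, against 10% of 29859 transcripts. Ifi209-202, a model of 1594 bases annotated for nonsense-mediated decay, held 41.79% ± 4.77 of the gene's TPM in the kallisto layout and 8.82% ± 5.44 in the RSEM layout (SD, n = 4). Its kallisto levels were 229 and 179 TPM in replicates 3 and 4 and 152 and 132 TPM in replicates 1 and 2, and its RSEM levels were 55.8 and 47.9 TPM and 16.5 and 15.9 TPM in the same order. Of its words, 91.4% also occur in Ifi209-201, the coding model of 3439 bases.

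Ifi207-202 held 12.53% ± 9.78 of Ifi207 in the kallisto layout and 0.25% ± 0.14 in the RSEM layout, and shares 99.1% of its words with Ifi207-201. Aim2-203, of 326 bases, had 7.51 ± 3.78 TPM in the kallisto layout and was listed at 0 TPM in all 4 libraries of the RSEM layout.

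Ifi211 has 1 model, and Ifi204 and Ifi205 were carried by 1 coding model each, Ifi204-201 at 97.22% ± 1.53 and Ifi205-201 at 96.4% ± 0.78 of the RSEM TPM. Mndal was split between the coding Mndal-201 at 52.54% ± 2.6 and Mndal-209, a processed transcript of 367 bases, at 24.47% ± 4.88. In Ifi213 the coding model of 643 bases, Ifi213-205, took 37.28% ± 6.47. Of the words of Mndal-201, Mndal-209 and Ifi213-205, 100% also occur in other models of the same gene, so these shares are estimates. Ifi203 was spread over 9 models, with Ifi203-205 in front at 29.81% ± 3.45. Its model Ifi203-203 had 124 and 68.8 TPM in replicates 3 and 4, against 11.8 and 37.7 TPM in replicates 1 and 2. Ifi203-202 went the other way, with 38.57 and 46.26 TPM against 72.5 and 78.8 TPM in the same order. In the kallisto layout Ifi203-203 had 76.18 and 25.63 TPM against 0.0 and 2.57 TPM, and the pairs of Ifi203-202 overlapped. Of the words of each of these models, 100% also occur in other models of Ifi203, which limits how reads can be split between them.

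The estimated transcript make-up of Aim2 differed between the libraries more than its RSEM-layout TPM. In the kallisto layout Aim2 had 148 and 115 TPM in replicates 3 and 4, against 91.9 and 106 TPM in replicates 1 and 2, a ratio of the pair means of 1.33 with no overlap. Aim2-204, the coding model of 2079 bases, had 79.0 and 54.6 TPM in replicates 3 and 4, against 29.5 and 37.0 TPM in replicates 1 and 2. Aim2-206, a processed transcript of 383 bases, had 26.49 and 26.36 TPM in replicates 3 and 4, against 41.56 and 37.56 TPM in replicates 1 and 2. Aim2-205, a coding model of 744 bases, went the other way from Aim2-204. It had 13.42 and 14.16 TPM in replicates 3 and 4, against 21.88 and 23.05 TPM in replicates 1 and 2. Of the words of Aim2-204 and of Aim2-205, 100% also occur in other models of Aim2, which limits how reads can be split between them. For Aim2-206 it is 20.4%. Coding models together held 76.5% and 71.2% of Aim2 TPM in replicates 3 and 4, against 52.3% and 59.6% in replicates 1 and 2. The kallisto layout gave 78.4% and 75.1% in replicates 3 and 4, against 57.1% and 66.8% in replicates 1 and 2.

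**Figure D5:**
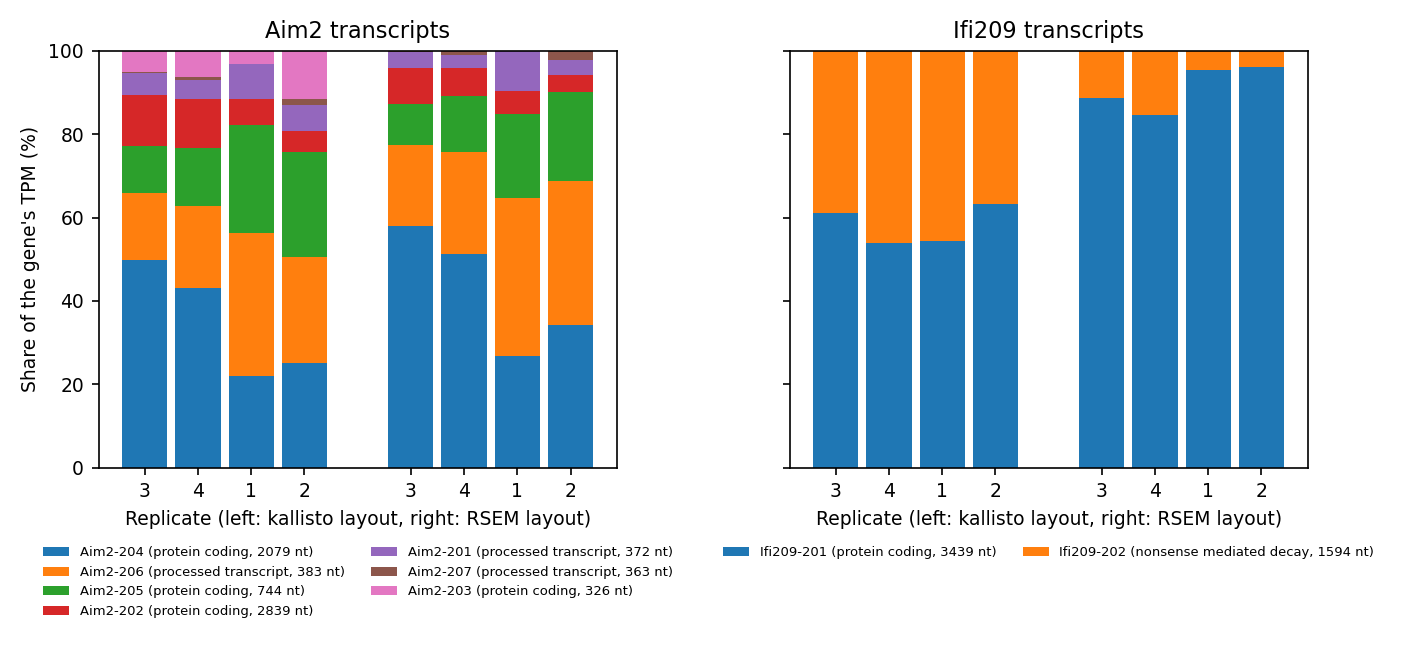
Share of gene TPM (%) taken by each transcript model of Aim2 (left panel) and Ifi209 (right panel) in replicates 3, 4, 1 and 2, with the kallisto layout left of the RSEM layout. Aim2-204 is larger in replicates 3 and 4 in both layouts, and Ifi209-202 is larger in the kallisto layout, at 41.79% against 8.82% on average.

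Aim2 differed between the libraries more by count than by RSEM-layout TPM. Its counts were 6403 and 5202 in replicates 3 and 4, against 1487 and 1781 in replicates 1 and 2, or 131 and 91.1 CPM against 58.1 and 65.04 CPM, where CPM is a count scaled to the library total without regard to length. The pair means stood at a ratio of 1.8 in CPM and of 1.12 in RSEM-layout TPM. The effective length that RSEM-layout tables give the gene averaged 1282 bases in replicates 3 and 4, against 842 bases in replicates 1 and 2. For the other 8 genes the ratio of effective lengths lay between 0.93 and 1.11.

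The libraries were compared with edgeR's quasi-likelihood test on counts, as replicates 3 and 4 over replicates 1 and 2. Of 13264 genes tested, 1.88% were called higher and 3.61% lower at an adjusted p below 0.05. None of the 9 genes was called in either direction, and 1 of them, Aim2, had an unadjusted p below 0.05, against 27.4% of all genes tested. That count was 3 of 9 by DESeq2, where 3463 genes had such a p and 12620 genes an adjusted p. It was also 3 of 9 by edgeR without a filter on low counts, against 4681 of 22006 genes. Aim2 stood at a log2 fold of 0.79 (SE 0.22, edgeR adjusted p = 0.0853), with both replicates 3 and 4 above both others in CPM. It was called by DESeq2's Wald test (log2 fold 0.82, adjusted p = 0.0171) and by edgeR without a filter on low counts (0.84, adjusted p = 0.0015), each of which called 1 of the 9 genes. DESeq2 called 6.71% of 12620 genes higher, and edgeR without the filter 5.51% of 22006.

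The other log2 folds were 0.56 (SE 0.30) for Ifi204, 0.52 (SE 0.25) for Mndal, 0.50 (SE 0.28) for Ifi207, 0.36 (SE 0.34) for Ifi211, 0.31 (SE 0.23) for Ifi203, 0.04 (SE 0.29) for Ifi209, -0.16 (SE 0.49) for Ifi205 and -0.24 (SE 0.26) for Ifi213. Their edgeR adjusted p-values lay between 0.246 and 0.94. The median over the 9 genes was 0.36, and over all genes tested -0.015. The median of the 9 rested on single libraries: it was 0.704 without replicate 1, 0.232 without replicate 2, 0.078 without replicate 3 and 0.623 without replicate 4. The fold of Ifi211, for example, was 0.77 without replicate 1 and 0.05 without replicate 2 or 3. With offsets for GC content and length the median of the 9 genes was 0.20 (log2) and Aim2 stood at 0.64 (edgeR adjusted p = 0.0822).

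The 5 other genes of the cluster with a row ranged widely. Ifi206 had 342 and 241 TPM in replicates 3 and 4, against 306 and 209 TPM in replicates 1 and 2. Ifi208 had 129 and 108 TPM in replicates 3 and 4, against 168 and 127 TPM in replicates 1 and 2. Ifi214 averaged 17.57 ± 4.07 TPM and Ifi203-ps 12.65 ± 1.19 TPM (SD, n = 4). Ifi202b, known to be scarcely expressed in C57BL/6 mice, had 2 and 0 counts in replicates 3 and 4, against 1 and 2 counts in replicates 1 and 2. Each is under the 3 counts that a count of 0 allows. Of these genes, 4 were tested by edgeR, and 0 were called in either direction or had an unadjusted p below 0.05. Of all genes tested, 1.88% were called higher, 3.61% were called lower and 27.4% had such a p.

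Genes of the AIM2 inflammasome were present in every library. Gbp2, an interferon-induced GTPase that helps expose bacterial DNA to Aim2, averaged 1032 ± 89.8 TPM, Zbp1, a nucleic acid sensor, 608 ± 91.6 TPM, and Casp1, the caspase of the inflammasome, 347 ± 89.7 TPM (SD, n = 4). Of 15 genes tested by edgeR, 0 were called higher and 1 lower in replicates 3 and 4, with 5 at an unadjusted p below 0.05, shares to be read against 3.61% of all genes called lower and 27.4% at that p. That gene was Il1b, with 24.6 and 41.8 TPM in replicates 3 and 4, against 85.7 and 110.1 TPM in replicates 1 and 2 (log2 fold -1.55, SE 0.26, edgeR adjusted p = 0.0366). Pycard, chosen after its values were seen because it encodes the adaptor of Aim2, had 25.1 and 18.7 TPM in replicates 3 and 4, against 89.4 and 98.7 TPM in replicates 1 and 2. In the count test its log2 fold was -0.63 (SE 0.16, edgeR adjusted p = 0.0691), and it was not called.

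Among cytosolic DNA-sensing genes, Irf7, a transcription factor of interferon genes, averaged 2163 ± 548 TPM, Samhd1, a nucleotide hydrolase, 1201 ± 185 TPM and Zbp1 608 ± 91.6 TPM. Of 14 tested, 1 was called higher, Xrcc6, which encodes the DNA-end protein Ku70 (log2 fold 0.87, SE 0.18, edgeR adjusted p = 0.0488), and 1 lower, Trex1, a DNA exonuclease (-0.90, SE 0.17, edgeR adjusted p = 0.044). At an unadjusted edgeR p below 0.05 were 5 of the 14, 4 of them higher in replicates 3 and 4, against 27.4% of all genes. In the interferon signalling list, Stat2, a transcription factor, averaged 435 ± 20.8 TPM and Usp18, a protease that removes Isg15 from proteins, 360.01 ± 161 TPM. Of its 17 genes, 7 had an unadjusted p below 0.05, against 27.4% of all genes, 0 were called higher and 1 was called lower: Socs1, an inhibitor of JAK kinases, at a log2 fold of -3.43 (SE 0.19, edgeR adjusted p = 0.0111). The calls in both lists are to be read against 1.88% of all genes tested called higher and 3.61% called lower.

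Interferon-stimulated genes outside the family were led by Ifit2 at 2751 ± 499 TPM, Isg15 at 2471 ± 1352 TPM and Ifit3 at 2309.6 ± 738 TPM. Of 28 tested, 10 had an unadjusted p below 0.05, against 27.4% of all genes, 0 were called higher and 2 were called lower in replicates 3 and 4: Isg15, a ubiquitin-like protein (log2 fold -1.49, SE 0.25, edgeR adjusted p = 0.0366), and Bst2, which tethers budding virus (-1.77, SE 0.24, edgeR adjusted p = 0.0296). Their median log2 fold was -0.31, and -0.015 for all genes tested, of which 1.88% were called higher and 3.61% lower.

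Likeness of level was measured for the 3 most abundant genes as the root-mean-square difference of log2(TPM + 1) over the 4 libraries. Among the protein-coding genes nearest to Ifi211 were Ifi204 (0.203) and Samhd1 (0.256). Nearest to Ifi204 were Samhd1 (0.169), Ifi211 (0.203) and Myl6, a myosin light chain (0.239). Nearest to Mndal were Arpc2, a subunit of the actin-nucleating Arp complex (0.133), Lgals1, a galectin (0.18), and Laptm5, a lysosomal membrane protein (0.216).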

How the data were processed

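Raw reads were not used. Per the deposited notes, tables were made on mm10 with GENCODE M21, from a transcriptome alignment (RSEM column layout) and straight from the read files (kallisto layout). The names of the programs were not given in the sources used here. Per the file headers, the deposited expected counts and estimated counts carry no normalization, and the deposited TPM sum to the same total in each library. Effective lengths and posterior SDs of counts are also as deposited. The 9 genes and the lists were chosen with earlier results of these data known. A count of 0 allows 3 counts, or 0.0614, 0.0525, 0.117 and 0.110 CPM in replicates 3, 4, 1 and 2, covering counting error only.

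Expected counts were rounded and fitted by the quasi-likelihood method of edgeR 4.0.16 (R 4.3.3) with TMM scaling. filterByExpr kept genes at a minimum count of 10. Benjamini-Hochberg adjustment ran over all genes tested, with a threshold of 0.05. DESeq2 1.42.0 was an alternative. The edgeR step was tested on simulated counts. The SE equals the size of the fold change divided by the root of F. Levels used log2(TPM + 1), and layouts log2 with 0.1 TPM added. Words and promoters were computed with Python 3.11.15, numpy 2.4.6 and pandas 2.3.3, permutation tests with scipy 1.17.1, and figures with matplotlib 3.10.9.

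Named were the 9 genes, all other cluster genes with a row, and the 3 most abundant genes of each list and every one called. Some, not all, of the transcripts with a share of at least 10% were named, and the 3 nearest genes to each of the 3 most abundant. Most marker genes are given as sums. A gene that this rule also names is not reported here. Transcripts discordant between layouts, Pycard and GAAATNGAA were chosen after values were seen. Alternatives were other pseudocounts, scalings, layouts, filters, normalizations, GC and length offsets, and leaving out each replicate. Protein identity was not analysed here.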

Additional observations from a re-analysis of the deposited data

Results flagged for a closer look

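Of 37 sets of 4 values, 1 had a library apart from the rest. Aim2 in replicate 3, at 136.42 TPM, stood away from the 3 other libraries: the gap to its nearest neighbour made up 0.906 of the whole range, above Dixon's 95% critical value for 4 samples. Chance alone marks about 1 in 20 such sets. Without replicate 3 the mean of Aim2 was 108.3 ± 1.4 TPM (SD, n = 3), against 115.3 ± 14.1 TPM with it. In the kallisto layout the same gap made up 0.593 of the range, below that critical value.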

How the results depend on the processing

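The series has 1 group, and the depth of these libraries does not limit the 9 genes, whose counts start at 1487. The 9 genes had 0 discordant members under every alternative run, and between 5 and 6 of 8 neighbouring pairs kept their order. The count of discordant genes was 593 with a pseudocount of 1, against 976. For replicates 3 and 4 over 1 and 2, edgeR called 250 genes higher and 479 lower. Without a filter 1213 and 1356 were called, with 1 of the 9 genes (Aim2) higher, by DESeq2 847 and 1015, also with 1 (Aim2), and with GC and length offsets 299 were lower. Leaving out each replicate gave 14 to 160 higher (14 without replicate 4, 27 without replicate 3, 64 without replicate 1) and 37 to 480 lower (37, 59 and 179 in the same order), where a lone library is assumed to vary like the others, and 0 of the 9 genes either way. Leaving out each replicate gave a log2 fold of -1.0 to 0.37 for Ifi205 (0.31 without replicate 1, 0.37 without replicate 4), of -0.57 to 0.04 for Ifi213 (0.04 without replicate 4) and of -0.34 to 0.36 for Ifi209 (-0.34 without replicate 3), and GC and length offsets gave -0.11 for Ifi209. Ifi207 over Ifi209 turned to -0.09 in the kallisto layout. Scaling over protein-coding nuclear genes, a smaller total, raised the mean TPM of all 9 genes by 1.15 to 1.16 times, and Aim2 averaged 133.5 TPM. The cause of the other changes was not tested. No paired analysis was possible because the series has 1 group.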
